A study of Homo sapiens with 10 samples.

Results

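The expression of 9 genes of heme synthesis was followed in K562 cells: ALAS1, ALAS2, SLC25A38, ALAD, UROS, UROD, CPOX, PPOX and FECH, given here in the order of the pathway. They were taken by symbol from a table of 23284 genes, and all 9 were found in it. No measured value entered that rule, but the list was chosen with earlier results of these data known. The list is not a complete set of the pathway's enzymes. K562 is a line from a chronic myeloid leukemia that keeps traits of a red cell precursor. The cells had been exposed for 48 h to CBP30 at 2 or 5 µM, to I-CBP112 at 2 or 5 µM, or to the vehicle DMSO alone, and each of the 5 conditions had 2 samples that the labels call biological replicates. CBP30 and I-CBP112 both occupy the bromodomain, an acetyl-lysine pocket, of the acetyltransferases CREBBP and EP300. All samples shared the cell line, the culture medium and the time of harvest, so every result refers to 1 line at 1 time.

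Heme is an iron ring that carries oxygen in hemoglobin and electrons in the respiratory chain. Its synthesis begins in mitochondria, where an ALAS enzyme joins glycine to succinyl-CoA, continues in the cytosol through ALAD, UROS and UROD, and returns to mitochondria for CPOX, PPOX and FECH. Red cell precursors build far more heme than other cells and use their own first enzyme, ALAS2, whereas ALAS1 serves all tissues.

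Values are given in FPKM, fragments scaled to the length of the transcript and to the size of the library, which allows levels of different genes to be set side by side per length. FPKM retains no read counts, so the depth is unknown and no counting error could be given. Differences were tested with limma on log2(FPKM + 1) in 1 fit of all 10 samples over the 12788 genes that averaged 0.5 FPKM or more. All 9 genes passed that filter. A gene was called changed where the p-value adjusted over all tested genes (Benjamini-Hochberg) was below 0.05. A difference on this log2 scale understates the change of low genes, which bears mostly on ALAD. The 4 comparisons with DMSO used the same 2 DMSO samples and are not independent of each other.

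The samples of 2 µM CBP30 stood apart from the other pairs. Their gap followed the length of the transcript, with a Spearman rho of −0.566 across 12173 genes of known length, whereas rho lay between −0.148 and 0.271 in the other 4 groups, and genes are not independent of one another. The median gap between the samples of a pair was 0.202 on the log2 scale in this group and between 0.0507 and 0.0727 in the others. Replicate 1 of this group was the higher one for all 9 genes. The gap alone does not show which of the 2 samples deviates. The median log2(FPKM + 1) over the tested genes was 3.592 in replicate 1 and 3.650 in replicate 2. It lay between 3.649 and 3.658 in the samples of the other groups. The summed FPKM of all genes was 689095 in replicate 1 and 605892 in replicate 2, beside 547504 to 620641 in the other groups. By both measures replicate 1 lay outside the range of all other samples, and replicate 2 lay within that of the other groups. Every comparison shares 1 estimate of spread, and leaving out either sample takes the gap out of it. Calls gained this way in other groups are thus not particular to replicate 1. Results are also given without replicate 1 where a call of the 9 genes or a list count depends on it. Such a fit assumes that the lone sample left varies like the other groups. It called more of all tested genes: 33.4% lower and 29.4% higher at 5 µM CBP30, 19.9% and 17.3% at 2 µM CBP30, 12.5% and 10.5% at 5 µM I-CBP112 and 4.89% and 4.12% at 2 µM I-CBP112.

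Markers of the red cell lineage were present in the DMSO samples and moved with treatment. The 5 markers used (EPOR, KLF1, HBE1, HBZ and TFRC) summed to 974–1022 FPKM in DMSO, 355–448 at 2 µM CBP30, 288–296 at 5 µM CBP30, 579–632 at 2 µM I-CBP112 and 543–579 at 5 µM I-CBP112. All 5 were called lower at 5 µM CBP30 and 4, 3 and 2 of them at 2 µM CBP30, 5 µM I-CBP112 and 2 µM I-CBP112, where 25.4%, 16.3%, 3.28% and 0.735% of all tested genes were called lower. Without replicate 1 of 2 µM CBP30, the differences of all 5 from DMSO were negative in each treatment. At 2 µM CBP30, HBE1 had 164.9 and 122.8 FPKM against 161.6 and 154.9 in DMSO, so its direction there depended on the sample kept. KLF1, a transcription factor of red cell precursors, had 68.8 and 61.9 FPKM in DMSO and 8.40 and 8.49 at 5 µM CBP30. Of 6 markers of other cells, EPCAM had 58.6–59.7 FPKM in DMSO and was called lower at 5 µM CBP30 (31.8–33.0). MS4A1 was listed at 0 in every sample, and the 5 without EPCAM summed to 2.68 in both DMSO samples and to 6.17–6.54 at 5 µM CBP30. The part of these markers in the results on heme genes was not tested. In bulk RNA, fewer cells of a kind and less RNA per cell cannot be told apart.

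UROD, which decarboxylates uroporphyrinogen, dominated the pathway at the level of RNA. In DMSO it had 359.7 and 360.3 FPKM, 68.2–68.3% of the summed FPKM of the 9 genes, and by its mean over all 10 samples it ranked above 97.8% of the tested genes. SLC25A38, which brings glycine into mitochondria, came next with a mean of 33.8 ± 1.70 FPKM (SD, n = 2), followed by ALAS2 with 32.4 ± 0.242. The others descended from PPOX (24.9 ± 0.706) through UROS (20.6 ± 1.29), CPOX (17.2 ± 0.529), FECH (16.4 ± 0.225) and ALAS1 (13.6 ± 0.410) to ALAD (8.35 ± 0.00449), the cytosolic enzyme that joins 2 molecules of aminolevulinate. No pair of neighbours in this order overlapped in DMSO, although with 2 samples a group this says little. The order changed under CBP30. At 5 µM, ALAD stood 4th with 17.0 ± 0.518 and PPOX stood 9th with 12.1 ± 0.565.

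**Figure D1:**
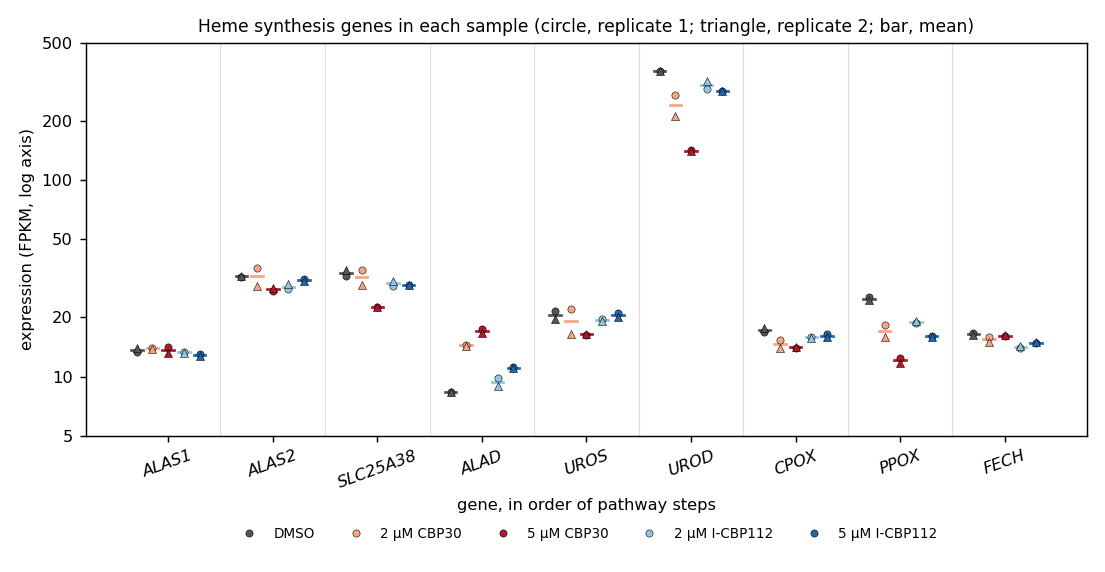
Expression of the 9 genes in FPKM on a log axis, in pathway order, with each sample as a symbol (circle for replicate 1, triangle for replicate 2) and the mean as a bar, coloured by condition. UROD lies above all others in every condition, falling from 359.7–360.3 in DMSO to 140.8 at 5 µM CBP30, while ALAD rises from 8.35 to 17.0.

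Relative to their summed level, the genes lost mostly UROD. The 9 genes summed to 526–528 FPKM in DMSO, 359–442 at 2 µM CBP30, 279–282 at 5 µM CBP30, 438–471 at 2 µM I-CBP112 and 433–436 at 5 µM I-CBP112. Without UROD the sums were 167–168 in DMSO and 139–140.3 at 5 µM CBP30. The share of UROD was 50.1–50.2% at 5 µM CBP30 and 64.8–65.2% at 5 µM I-CBP112. The ratio of UROD to ALAD, computed within each sample, was 43.1 in both DMSO samples, 18.7 and 14.8 at 2 µM CBP30, 8.15 and 8.40 at 5 µM CBP30, 29.5 and 35.6 at 2 µM I-CBP112 and 25.3 and 25.7 at 5 µM I-CBP112. No treated sample reached the DMSO ratio.

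Promoter sequences are shown for a gene that fell with a marked motif (SLC25A38), for the gene with the largest change (UROD) and for the erythroid gene of the first step (ALAS2), because these differed in response. RefSeq (GRCh38.p14) gave 10 start sites for 8 of the 9 genes, and UROS had no entry. All 10 sequences of 250 bases upstream of the start matched the GRCh37 genome at 1 place each, and coordinates are those of GRCh37. Capitals mark the searched motifs.
ALAS2, chrX:55057411-55057660, minus strand: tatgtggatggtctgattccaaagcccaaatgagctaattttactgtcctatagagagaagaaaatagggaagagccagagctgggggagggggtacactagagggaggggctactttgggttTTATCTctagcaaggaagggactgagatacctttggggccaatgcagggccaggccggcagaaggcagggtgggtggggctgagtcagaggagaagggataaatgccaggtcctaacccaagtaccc
SLC25A38, chr3:39424611-39424860, plus strand: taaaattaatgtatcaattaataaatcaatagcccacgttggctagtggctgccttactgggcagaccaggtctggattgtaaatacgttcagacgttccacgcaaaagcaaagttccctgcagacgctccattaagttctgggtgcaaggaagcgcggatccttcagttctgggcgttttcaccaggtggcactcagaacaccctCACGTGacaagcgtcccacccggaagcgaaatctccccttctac
UROD, chr1:45477676-45477925, plus strand: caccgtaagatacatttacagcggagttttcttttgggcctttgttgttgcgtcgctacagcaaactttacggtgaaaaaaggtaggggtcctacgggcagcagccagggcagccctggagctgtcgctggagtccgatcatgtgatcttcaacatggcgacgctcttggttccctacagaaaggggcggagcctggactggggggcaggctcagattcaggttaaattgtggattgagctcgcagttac

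3 kinds of motif were searched on both strands. The words for GATA factors were AGATAA with its relatives beginning in T, namely TGATAA, and ending in G, namely AGATAG as well as the double variant TGATAG. The others were the MYC E-box CACGTG and the core of the NRF1 site, GCATGCG. A place matched on both strands was counted once, and no matched places overlapped. A GATA word occurs in 22.3% of 35116 promoters of this length, the E-box in 6.34% and the NRF1 core in 3.39%. ALAS2 held 1 GATA word, 122–127 bases before its start, and SLC25A38 held 1 E-box, 39–44 bases before its start. A GATA word was also found in ALAD, PPOX and CPOX, the last with 2, shown here as 30-base windows because these genes were called changed under CBP30.
ALAD, chr9:116163451-116163480, minus strand: ctggatgcggggAGATAGcgggcctggagg
CPOX, chr3:98312645-98312674, minus strand: agaaagcctcttTTATCTctcccgtccctt
CPOX, chr3:98312563-98312592, minus strand: cgcgtcggattcTTATCTcccgccccgcgc
PPOX, chr1:161136361-161136390, plus strand: agggtgtggcccTTATCTgcacccagcaga
The windows of ALAD and PPOX lie before 1 of 2 listed start sites of each gene. No searched word was found in the promoters of ALAS1, UROD and FECH, and the NRF1 core was found in none of the 10. A match is a description of letters. ALAD, which rose, held AGATAG, and CPOX and PPOX, which fell, held AGATAA on the other strand. The part of these words in the responses was not tested.

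The first question was what the higher dose of CBP30 did to the pathway. At 5 µM CBP30, SLC25A38, UROD, CPOX and PPOX fell and ALAD rose, while ALAS1, ALAS2, UROS and FECH were not called. Thus 4 of 9 genes were called lower and 1 higher, where 25.4% of all tested genes were called lower and 21.2% higher. The median difference of the 9 genes was −0.27 on the log2 scale, against −0.0096 over all tested genes. The genes that changed sat at the mitochondrial import of glycine, in the cytosolic steps and at the steps before iron insertion.

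Neither of the ALAS genes, which make aminolevulinate at the first step, was called. ALAS1 had 13.3 and 13.9 FPKM in DMSO and 14.1 and 13.1 at 5 µM CBP30, and the groups overlapped. The difference was −0.0013 on the log2 scale with a 95% interval from −0.12 to 0.12 (limma, adjusted p = 0.992). ALAS2 had 32.2 and 32.6 FPKM in DMSO and 27.4 and 28.1 at 5 µM CBP30. Its groups did not overlap, and the difference of −0.21 ± 0.091 (SE, n = 2 per group) gave a limma adjusted p of 0.0917. ALAS2 was called lower in a fit of the 2 groups alone (limma, adjusted p = 0.00641). That fit called 4165 of all tested genes lower, against 3245 in the fit of all groups. With the length trend removed, ALAS2 was at −0.13 and also called lower (limma, adjusted p = 0.0412). A fit that left out replicate 1 of 2 µM CBP30 gave the same difference as the fit of all samples.

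SLC25A38, the mitochondrial glycine carrier of red cell precursors, fell to 66.9% of the DMSO mean. It had 32.6 and 35.0 FPKM in DMSO against 22.6 in both samples of 5 µM CBP30, so the groups were separate. The difference was −0.56 ± 0.080 on the log2 scale (limma, adjusted p = 0.00131).

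In the cytosol, ALAD and UROD moved in opposite directions. ALAD had 8.35 FPKM in both DMSO samples and 17.4 and 16.7 at 5 µM CBP30, a ratio of means of 2.04 and a difference of 0.95 ± 0.055 (limma, adjusted p = 2.83e-05). UROD had 359.7 and 360.3 FPKM in DMSO and 142 and 139.9 at 5 µM CBP30, which is 39.1% of the DMSO mean and a difference of −1.35 ± 0.11 (limma, adjusted p = 1.15e-04). In both genes every treated sample lay outside the range of the vehicle by far more than the gap within a pair. UROS, which closes the ring, had 21.5 and 19.6 FPKM in DMSO and 16.3 and 16.6 at 5 µM CBP30. These groups did not overlap, but the difference of −0.31 ± 0.12 missed the threshold (limma, adjusted p = 0.0709). UROS passed in a fit of the 2 groups alone (limma, adjusted p = 0.014) but not with the length trend removed (−0.27, 0.069). Without replicate 1 of 2 µM CBP30 its difference was unchanged.

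Among the last 3 enzymes, PPOX changed most. PPOX, which oxidizes the ring to protoporphyrin, had 25.4 and 24.4 FPKM in DMSO and 12.5 and 11.7 at 5 µM CBP30, 48.6% of the DMSO mean. The difference was −0.98 ± 0.071 (limma, adjusted p = 6.38e-05). CPOX, the enzyme before it, had 16.8 and 17.6 FPKM in DMSO and 14.0 and 14.2 at 5 µM CBP30, a smaller difference of −0.27 ± 0.057 (limma, adjusted p = 0.00738). The CPOX call was lost without replicate 2 of DMSO (limma, adjusted p = 0.0531). FECH, which inserts iron, had 16.6 and 16.3 FPKM in DMSO and 16.0 and 16.3 at 5 µM CBP30. The FECH groups overlapped, and the 95% interval of the difference ran from −0.13 to 0.089 on the log2 scale (limma, adjusted p = 0.733). The ratio of PPOX to FECH, above 1 in DMSO (1.503–1.534), was 0.719–0.781 at 5 µM CBP30.

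**Figure D2:**
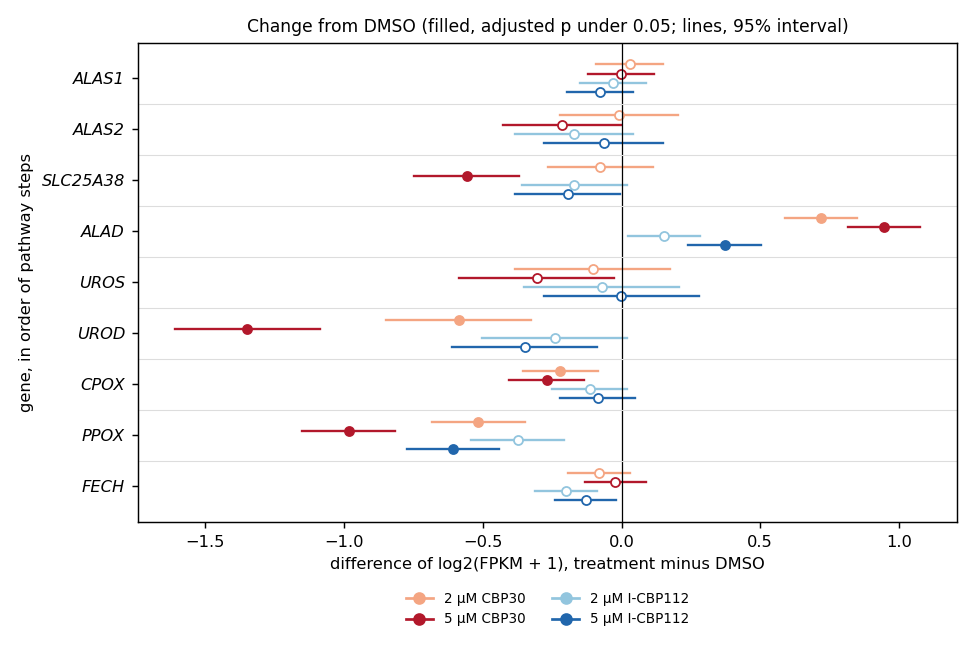
Difference of each gene from DMSO on the log2(FPKM + 1) scale with its 95% interval, 4 treatments per gene, filled where the adjusted p was under 0.05. UROD and PPOX reach −1.35 and −0.98 at 5 µM CBP30, ALAD lies to the right of 0 in all 4 treatments, and ALAS1 stays near 0.

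The same question was asked at 2 µM CBP30. UROD, CPOX and PPOX fell and ALAD rose, so 3 of 9 genes were called lower and 1 higher, beside 16.3% and 15.9% of all tested genes. UROD had 271 and 211 FPKM, a mean of 241 ± 42.4 or 67.0% of DMSO, and differed by −0.59 ± 0.11 (limma, adjusted p = 0.00827). Both samples lay below the DMSO range, but their gap was much wider than in any other pair. PPOX had 18.4 and 15.9 FPKM and differed by −0.52 ± 0.071 (limma, adjusted p = 0.00233).

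ALAD and ALAS1 were the genes least touched by the gap between these samples, at 0.016 and 0.0081 on the log2 scale. ALAD had 14.5 and 14.3 FPKM at 2 µM CBP30, 172% of the DMSO mean, and differed by 0.72 ± 0.055 (limma, adjusted p = 2.40e-04). CPOX had 15.3 and 13.9 FPKM and a difference of −0.22 ± 0.057 (limma, adjusted p = 0.0255). ALAS1 (14.0 and 13.9 FPKM), ALAS2 (35.7 and 28.9), SLC25A38 (34.7 and 29.4) and UROS (22.0 and 16.5) overlapped with DMSO, and FECH (15.9 and 14.996) lay just below it without being called.

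Which sample was kept changed the account of this dose. Without replicate 1, UROD differed by −0.77, PPOX by −0.61, UROS by −0.30, CPOX by −0.29, SLC25A38 by −0.19, ALAS2 by −0.16 and FECH by −0.12, and ALAD by 0.71. Without replicate 2, UROD was at −0.41, PPOX at −0.42, CPOX at −0.16, FECH at −0.042 and ALAD at 0.73. In that fit ALAS2 was at 0.14, UROS at 0.095 and SLC25A38 at 0.039, a reversal of sign for these genes. ALAD, UROD, CPOX and PPOX thus kept their direction with either sample. With both samples kept and the length trend removed, SLC25A38 was at −0.19 and called lower (limma, adjusted p = 0.0244). ALAS2 (−0.13, 0.055), UROS (−0.12, 0.409) and FECH (0.059, 0.643) were not called in that fit. It called 4 of the 9 genes lower and 1 higher, beside 19.6% and 19.4% of all genes in it. The calls for UROD and CPOX were lost without DMSO replicate 1 (limma adjusted p = 0.0505 and 0.0731) and without DMSO replicate 2 (0.0505 and 0.139), and that of CPOX also without either sample of 5 µM CBP30 (0.0517 and 0.0516). In a fit of the 2 groups alone, limma called none of the 9 genes lower, with adjusted p of 0.132 for UROD, 0.228 for CPOX and 0.0935 for PPOX, and ALAD alone higher.

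I-CBP112 at 5 µM changed fewer of the genes. ALAD rose and PPOX fell, 1 of 9 genes in each direction, where 3.84% of all tested genes were called higher and 3.28% lower. PPOX had 16.1 and 15.9 FPKM, 64.2% of the DMSO mean, and differed by −0.61 ± 0.071 (limma, adjusted p = 0.0044). ALAD had 11.2 and 11.0 FPKM, 133% of the DMSO mean, and differed by 0.37 ± 0.055 (limma, adjusted p = 0.0109). Neither group overlapped with DMSO. The ALAD call was lost when any of the 4 samples of the 2 groups was left out (limma, adjusted p between 0.0812 and 0.0954).

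The other 7 genes were not called at 5 µM I-CBP112. UROD had 283 and 282 FPKM, 78.5% of the DMSO mean and below both DMSO samples, with a difference of −0.35 ± 0.11 (limma, adjusted p = 0.117). SLC25A38 had 29.3 and 29.4 FPKM, also below both DMSO samples, with a difference of −0.19 ± 0.080 (limma, adjusted p = 0.214). Without replicate 1 of 2 µM CBP30 in the fit, UROD (0.00511), SLC25A38 (0.0274) and FECH (0.028) passed with unchanged differences, as limma adjusted p-values, and 4 genes were then called lower and 1 higher. UROD was also called in a fit of the 2 groups alone (limma, adjusted p = 0.015). ALAS1 (12.96 and 12.75 FPKM), ALAS2 (31.4 and 30.5), CPOX (16.4 and 15.9) and FECH (14.86 and 14.96) lay below both DMSO samples, and UROS (21.06 and 20.0001) overlapped with them.

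At 2 µM I-CBP112 limma called none of the 9 genes in either direction, beside 0.735% of all tested genes called lower and 0.868% higher. PPOX came nearest, with 18.8 and 19.2 FPKM, 76.2% of the DMSO mean and a difference of −0.37 ± 0.071 (limma, adjusted p = 0.0596). Before adjustment, 3 of the 9 genes had a limma p under 0.05. The share of all tested genes below that unadjusted threshold was not computed, so this count has no background. UROD had 289.7 and 319.7 FPKM, ALAS2 27.8 and 29.5, SLC25A38 29.02 and 30.77, CPOX 15.9 and 15.7 and FECH 14.0 and 14.3, all below both DMSO samples. ALAD had 9.83 and 8.98 FPKM, above both DMSO samples, and ALAS1 (13.4 and 13.2) and UROS (19.7 and 19.2) overlapped with them. Without replicate 1 of 2 µM CBP30 in the fit, PPOX (0.00697), FECH (0.0172), UROD (0.0331) and ALAS2 (0.0431) were called lower, as limma adjusted p-values.

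Across the 4 treatments, ALAD lay above both DMSO samples each time, and UROD, CPOX and PPOX lay below them each time. How far the treatments differed from one another was tested directly in 4 pairs of groups, each in the same fit and adjusted over all tested genes.

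Raising the dose of CBP30 from 2 to 5 µM lowered SLC25A38, UROD and PPOX further and raised ALAD further. So 3 of 9 genes were called lower and 1 higher, beside 21.3% and 17.6% of all tested genes. UROD differed by −0.76 ± 0.11 (limma, adjusted p = 0.00467), SLC25A38 by −0.48 ± 0.080 (0.00687), PPOX by −0.47 ± 0.071 (0.00523) and ALAD by 0.23 ± 0.055 (0.0204). Without replicate 1 of 2 µM CBP30, UROD was at −0.58, SLC25A38 at −0.36, PPOX at −0.37 and ALAD at 0.23. Without replicate 2 of that group they were at −0.94, −0.60, −0.56 and 0.22. The ALAD call was lost without replicate 1 or 2 of 5 µM CBP30 (limma, adjusted p = 0.115 and 0.0765), and that of SLC25A38 without replicate 2 (0.0514). In a fit of the 2 CBP30 groups alone, limma called none of the 9 (adjusted p between 0.13 and 0.166 for these 4 genes).

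Between 2 and 5 µM I-CBP112, limma called none of the 9 genes, where 0.00782% of all tested genes were called lower and 0.0547% higher. Before adjustment, 2 of the 9 had a limma p under 0.05, again without a share over all tested genes to set beside it. The 95% intervals of the difference were 0.087 to 0.35 for ALAD, −0.40 to −0.066 for PPOX and −0.37 to 0.15 for UROD. For ALAS2 the higher dose gave the higher level with I-CBP112 (0.11) and the lower level with CBP30 (−0.21), with no overlap in either pair and no call in either. The CBP30 step of ALAS2 rested on 1 sample: it was −0.058 without replicate 1 of 2 µM CBP30, −0.35 and called lower without replicate 2 (limma, adjusted p = 8.63e-04), and −0.0012 with the length trend removed.

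The dose step was then compared between the compounds by an interaction term. No member was called by limma in either direction, beside 3.32% of all tested genes lower and 1.63% higher. For 3 of the 9 the limma p was under 0.05 before adjustment, a count without a background over all tested genes. The step of CBP30 minus that of I-CBP112 was −0.65 ± 0.16 for UROD (limma, adjusted p = 0.058), −0.46 ± 0.11 for SLC25A38 (0.061), −0.31 ± 0.13 for ALAS2 (0.136) and −0.23 ± 0.10 for PPOX (0.147). Without replicate 1 of 2 µM CBP30 the term was −0.48 for UROD, −0.34 for SLC25A38, −0.17 for ALAS2 and −0.14 for PPOX. Without replicate 2 instead it was −0.83, −0.57, −0.46 and −0.33 for the same genes, so its size depended on the sample kept.

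The compounds differed most at 5 µM. SLC25A38, UROD, CPOX and PPOX were lower and ALAD was higher with CBP30 than with I-CBP112, 4 and 1 of 9 genes, beside 17.9% and 13.6% of all tested genes. UROD differed by −0.9997 ± 0.11 (limma, adjusted p = 0.00102), a level 2.01 times higher with I-CBP112. ALAD differed by 0.58 ± 0.055 (5.49e-04), PPOX by −0.38 ± 0.071 (0.00781), SLC25A38 by −0.36 ± 0.080 (0.0146) and CPOX by −0.18 ± 0.057 (0.0473). The samples of the 2 compounds did not overlap for any of these 5 genes, again without a share over all tested genes.

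These calls were not equally firm. The CPOX call was lost under 6 other settings of the fit (adjusted p from 0.056 to 0.0907 in limma) and without any sample outside the 2 µM CBP30 pair (0.0732 to 0.206). The SLC25A38 call was lost without any of the 4 samples compared (limma, adjusted p from 0.0758 to 0.079), and the PPOX call without CBP30 replicate 2 (0.0633) or I-CBP112 replicate 1 (0.0542). The genes not called had 95% intervals of −0.044 to 0.20 (ALAS1), −0.37 to 0.063 (ALAS2), −0.58 to −0.026 (UROS) and −0.0033 to 0.22 (FECH), so differences of that size were not settled. A fit without replicate 1 of 2 µM CBP30 called 6 genes lower and 2 higher.

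At 2 µM, ALAD was higher with CBP30 than with I-CBP112 by 0.57 ± 0.055 (limma, adjusted p = 0.00204), a ratio of means of 1.53. It was the 1 gene of 9 called higher and 0 were called lower, beside 7.13% and 8.45% of all tested genes. UROD differed by −0.35 with a 95% interval from −0.61 to −0.083 (limma, adjusted p = 0.0747) and PPOX by −0.14 with an interval from −0.31 to 0.024 (0.192). Without replicate 1 of 2 µM CBP30 the differences were −0.52 for UROD, −0.24 for PPOX, −0.17 for CPOX and −0.23 for UROS. Without replicate 2 instead they were −0.17 for UROD, −0.047 for PPOX, −0.041 for CPOX and 0.17 for UROS. In that fit ALAD was at 0.57, ALAS2 at 0.31, SLC25A38 at 0.21 and FECH at 0.16. The ALAD call was lost in a fit of the 2 groups alone (limma, adjusted p = 0.197). The difference for ALAD at 2 µM was close to that at 5 µM, and its interaction term of 0.0087 had a 95% interval from −0.18 to 0.19.

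**Figure D3:**
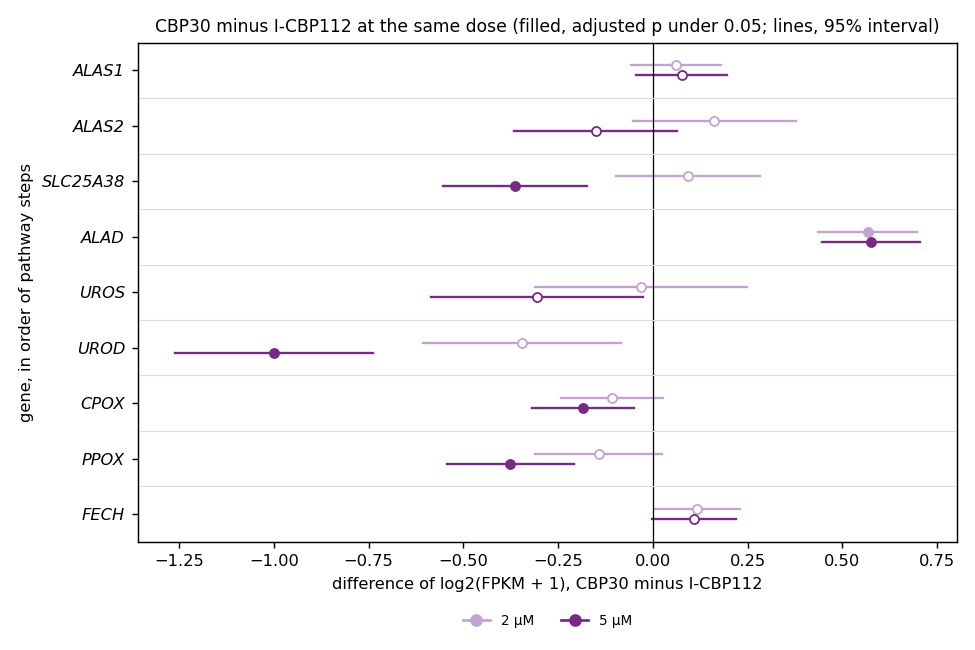
Difference between CBP30 and I-CBP112 at the same dose for each gene on the log2(FPKM + 1) scale, with 95% intervals, filled where the adjusted p was under 0.05. ALAD lies at 0.57 and 0.58 at the 2 doses, whereas UROD moves from −0.35 at 2 µM to −0.9997 at 5 µM.

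A list of 15 genes that supply the pathway or move its intermediates was read from the same fit. At 5 µM CBP30, 8 of the 15 were called lower and 0 higher, with a median of −0.30 on the log2 scale against −0.0096 over all genes. At 2 µM CBP30 the counts were 5 lower and 2 higher, at 5 µM I-CBP112 2 and 0, and at 2 µM I-CBP112 0 and 0. The counts without replicate 1 of 2 µM CBP30 were 11 and 1 at 5 µM CBP30, 8 and 2 at 2 µM CBP30, 6 and 1 at 5 µM I-CBP112 and 5 and 0 at 2 µM I-CBP112. The percentages over all genes were those given above for each treatment and fit. At 2 µM CBP30 the median of the 15 genes was −0.082, and it was −0.16 without replicate 1 of that group and 0 without replicate 2. SLC6A9, a glycine transporter of the cell surface, had 26.2 and 25.2 FPKM in DMSO, 17.63 and 18.01 at 2 µM CBP30, 10.3 and 9.76 at 5 µM CBP30, 22.4 and 22.3 at 2 µM I-CBP112 and 19.4 and 19.1 at 5 µM I-CBP112. At 5 µM CBP30 it differed from DMSO by −1.27 ± 0.048 (limma, adjusted p = 4.85e-06), so that glycine carriers of both membranes were called lower at this dose.

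The 8 genes called lower at this dose included an iron carrier and genes of iron-sulfur assembly. SLC25A37, the iron carrier mitoferrin-1, had 26.9 and 24.9 FPKM in DMSO and 17.3 and 15.4 at 5 µM CBP30, a difference of −0.63, while its relative SLC25A28 (−0.21) was not called. GLRX5 and NFS1, which serve the making of iron-sulfur clusters, differed by −0.65 and −0.23 and were called, while ISCU (−0.31) was not, but passed in a fit without replicate 1 of 2 µM CBP30 (limma, adjusted p = 0.00288). ABCB10, a mitochondrial transporter that interacts with mitoferrin-1, was called lower in both CBP30 groups and at 5 µM I-CBP112 (−0.30 at 5 µM CBP30, −0.34 at 2 µM and −0.27). At 2 µM CBP30 the 2 genes called higher were PGRMC1, a heme-binding membrane protein (77.9 and 77.8 FPKM in DMSO against 107.8 and 94.9), and SHMT2, which makes glycine in mitochondria. SHMT2 had 290.2 and 289.8 FPKM in DMSO, 380 and 333 at 2 µM CBP30 (0.29, called higher, and 0.20 without replicate 1) and 218 and 212 at 5 µM CBP30 (−0.43, called lower).

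A further list of 14 genes covers heme breakdown, export and sensing, of which 12 passed the filter. HMOX1, the inducible heme oxygenase, and ABCG2, a porphyrin exporter, were below it. At 5 µM CBP30, 3 of the 12 were called lower and 2 higher, at 2 µM CBP30 4 and 1, at 5 µM I-CBP112 1 and 0, and at 2 µM I-CBP112 0 and 0. The counts at 5 µM CBP30 lay at or below the background, as 25.4% and 21.2% of all tested genes were called lower and higher. At 2 µM CBP30 the median of the 12 was −0.23, and it was −0.081 without replicate 1 of that group and −0.33 without replicate 2. In a fit without replicate 1 of 2 µM CBP30 the lower and higher counts were 4 and 4, 4 and 3, 2 and 2, and 2 and 1 for the treatments in the same order. BLVRB, a biliverdin and flavin reductase that red cells hold in quantity, had 171 and 169 FPKM in DMSO, 98.5 and 64.5 at 2 µM CBP30 and 51.7 and 49.6 at 5 µM CBP30, a difference of −1.73 ± 0.17 at the higher dose (limma, adjusted p = 2.32e-04). NR1D1, a nuclear receptor that binds heme, had 3.01 and 3.56 FPKM in DMSO and 1.35 and 1.72 at 5 µM CBP30, a difference of −0.76, and was called lower in both CBP30 groups. SLC48A1, an importer of heme from endosomes, was called lower in 3 treatments and differed by −0.51 at 5 µM CBP30. FLVCR1, a heme exporter, rose from 6.57 and 6.69 to 9.90 and 9.89 FPKM, a difference of 0.51, in the same samples.

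**Figure D4:**
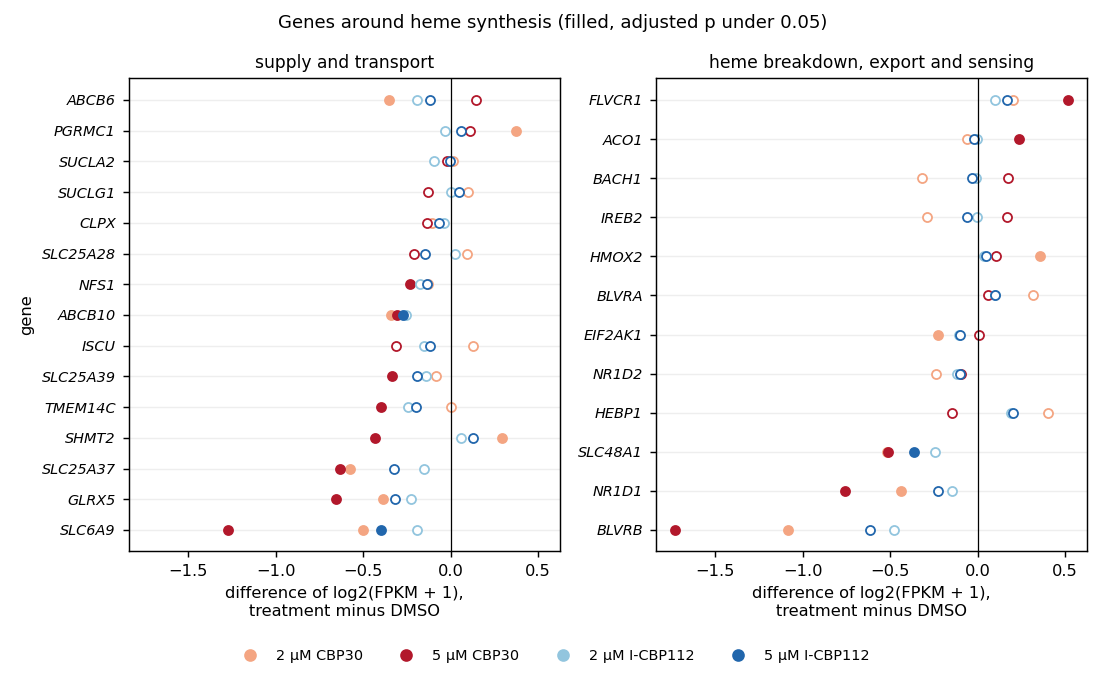
Differences from DMSO on the log2(FPKM + 1) scale for 15 genes of supply and transport (left) and 12 genes of heme breakdown, export and sensing (right), filled where the adjusted p was under 0.05. SLC6A9 (−1.27) and BLVRB (−1.73) lie farthest to the left at 5 µM CBP30, and FLVCR1 (0.51) farthest to the right.

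The genes whose pattern was most like the 2 members with the largest changes were sought over the 10 samples among 8422 protein-coding genes averaging 5 FPKM or more. For UROD they were DKC1 (Pearson r = 0.999), KIAA0020 (0.997) and B4GALT2 (0.997) on the log2(FPKM + 1) scale. For PPOX they were HDAC7 (0.990), LRSAM1 (0.978) and LRP5 (0.978). DKC1, the pseudouridine synthase of the box H/ACA particles, had means of 141, 111, 82.2, 129 and 121 FPKM in DMSO, 2 µM CBP30, 5 µM CBP30, 2 µM I-CBP112 and 5 µM I-CBP112. Within the pathway r was 0.916 between UROD and PPOX, −0.920 between UROD and ALAD, −0.225 between UROD and FECH and −0.205 between UROD and ALAS1. These values describe 10 samples that fall into 5 conditions and share their libraries, and they were not tested.

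The 9 genes lie on several chromosomes, and a link between position and response was not tested. UROD (chr1:45476622-45481247) and PPOX (chr1:161135846-161147803) lie far apart on chromosome 1. ALAS1 (chr3:52232102-52248343), SLC25A38 (chr3:39424861-39438842) and CPOX (chr3:98298290-98312492) share chromosome 3 and ALAS2 (chrX:55035488-55057410) lies on the X chromosome. ALAD lies at chr9:116148592-116163570, UROS at chr10:127473549-127511827 and FECH at chr18:55211609-55253964, all in GRCh37. Each span covers all transcripts of a protein-coding gene in the Ensembl annotation, and exons or isoforms could not be resolved from 1 value per gene.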

How the data were processed

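The study isolated polyadenylated RNA from K562 cells, made stranded libraries and sequenced single reads. The submitters' processing notes name FastQC, TopHat2 2.0.10, Bowtie 1.0.0, SAMtools 0.1.19, Cufflinks 2.2.1 and Cuffnorm with GRCh37 (hg19). The gene annotation is not given in the sources used here. The authors deposited 1 table of FPKM values with a column per sample, and depth cannot be recovered from it.

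Groups came from the sample labels. limma 3.58.1 in R 4.3.3 was run on log2(FPKM + 1), with genes below a mean of 0.5 FPKM left out, trended variances and 5 groups in 1 fit. The p-values measure only the spread between 2 samples per group. The length trend was removed, as an alternative, with a spline on the longest transcript of each gene. The fit was checked on simulated data for 5 µM CBP30 against DMSO. There it called 49 of 100 genes lowered by 0.5 on the log2 scale, 92 of 100 lowered by 1 and 7 unchanged genes. A gene not called here may thus have changed by 0.5 or more where its confidence interval reaches that far. At 5 µM CBP30 the interval of UROS did, as it ran down to −0.59. The intervals of ALAS1 (−0.12 to 0.12), FECH (−0.13 to 0.089) and ALAS2 (down to −0.43) did not reach 0.5 in either direction. The 9 genes, the neighbouring lists and the tests were chosen with earlier results of these data known. A few genes of these lists are not reported here and were left out of their counts. Named genes are all 9 members, the neighbours with the largest called changes, further neighbours (SLC25A28, NFS1, ISCU and ABCB10) chosen after their values were seen, and the 3 genes most correlated with the 2 members that changed most. Other pseudocounts, filters, scalings, a replicate block and leaving out each sample were tried.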

Additional observations from a re-analysis of the deposited data

Results flagged for a closer look

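For 3 genes outside the pathway itself, the step from 2 to 5 µM differed between the compounds by an interaction term in limma (adjusted over all genes, 2 samples per group). Values are the step of CBP30 minus the step of I-CBP112 on the log2 scale. The glycine transporter SLC6A9 gave −0.57 (limma, adjusted p = 0.0122) and −0.58 without replicate 1 of 2 µM CBP30 (0.00599). The mitochondrial serine hydroxymethyltransferase SHMT2 gave −0.79 (limma, adjusted p = 0.0143) and −0.70 without that sample (0.00273). The red cell factor KLF1 gave −0.96 (limma, adjusted p = 0.042) and −0.73 without that sample (0.0086).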

How the results depend on the processing

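At 5 µM CBP30 the counts of genes called lower and higher (4 and 1) stayed within 1.5 times under 10 other settings, and leaving out a sample gave 3 to 6 lower and 1 higher. Leaving out a sample elsewhere gave, for lower and higher, 1 to 7 and 1 to 2 at 2 µM CBP30, 1 to 4 and 0 to 1 at 5 µM I-CBP112, 0 to 4 and 0 at 2 µM I-CBP112, 2 to 5 and 0 to 1 between the CBP30 doses, 0 and 0 between the I-CBP112 doses, 1 to 6 and 1 to 2 between the compounds at 5 µM, 0 to 4 and 1 to 4 at 2 µM, and 0 to 5 and 0 for the dose step. Fitting only the groups compared added ALAS2 and UROS to the genes called lower at 5 µM CBP30. It gave 0 lower at 2 µM CBP30, 2 lower at 5 µM I-CBP112 and 0 lower and 0 higher between the CBP30 doses. Between the compounds it gave 2 higher at 5 µM and 0 higher at 2 µM. Quantile normalization gave 2 lower at 5 µM I-CBP112, 1 lower between the compounds at 2 µM and 2 lower for the dose step. Removing the length trend gave 5 lower at 5 µM CBP30 and 4 at 2 µM CBP30. It gave 3 lower at 5 µM I-CBP112, 1 at 2 µM I-CBP112, 3 between the compounds at 2 µM and 1 for the dose step. The number of all tested genes called moved with most of these settings too. The cause of these changes was not tested.

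Among the values reported for the 9 genes, signs turned only for genes not called in the fit of all samples. At 5 µM CBP30, ALAS1 was 0.0125 and FECH 0.0245 with quantile normalization, and ALAS1 0.073 without the length trend. At 2 µM CBP30, ALAS1 was −0.055 and FECH 0.059 without the length trend, and ALAS2 0.025 with median centring. At 5 µM I-CBP112, UROS was 0.0052 with median centring, 0.022 with quantile normalization and 0.0055 without the length trend. CPOX between the CBP30 doses was 0.082 without the length trend. Leaving out a sample turned ALAS1 at 5 µM CBP30 (−0.047 to 0.044), ALAS2 (−0.16 to 0.14), SLC25A38 (−0.19 to 0.039) and UROS (−0.30 to 0.095) at 2 µM CBP30, UROS at 5 µM I-CBP112 (−0.062 to 0.060) and CPOX between the CBP30 doses (−0.11 to 0.018).

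Replicate numbers did not pair the samples, since deviations of same-numbered samples correlated at −0.0681 to 0.0939 over 10 pairs of groups. With a replicate block the counts stayed at 4 and 1 at 5 µM CBP30, and CPOX between the compounds at 5 µM was lost (adjusted p = 0.0646). The call of KLF1 for the dose step was also lost, and 0 of the 5 red cell markers were called at 2 µM I-CBP112 (2 without the block). The block without the length trend gave 2 lower at 5 µM I-CBP112, 1 at 2 µM I-CBP112 and 3 between the compounds at 2 µM, with the reversed values given above for ALAS1, FECH, UROS and CPOX unchanged. Over all genes, fitting only the groups compared called 164 lower and 143 higher at 2 µM CBP30 (2079 and 2032 in the fit of all groups), 856 and 805 at 5 µM I-CBP112 (419 and 491) and 8 and 20 at 2 µM I-CBP112 (94 and 111), and 4 and 2 between the CBP30 doses (2724 and 2255). Without the length trend the counts were 775 and 806 at 5 µM I-CBP112 and 216 and 246 at 2 µM I-CBP112. With 2 samples per group and no read counts, differences as small as those of ALAS1 and FECH could not be resolved.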
